A study of Mus musculus with 36 samples.

Results

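DNase-seq maps open chromatin by sequencing the short fragments that the enzyme DNase I releases from nuclei, and a region that is cut often in many cells is called a DNase hypersensitive site (DHS). The 500 DHS described here are the most accessible of 52788 measured in a mouse pre-B line named B3. They were chosen by their measured values: the mean of each DHS over all 36 libraries was ranked, and the 500 highest means were kept, so that their levels and ranks are a description and carry no test. The libraries cover an Ikaros line and a Control line at 0, 2, 6, 12, 18 and 24 h. The Ikaros line was transduced with a retroviral MSCV vector that encodes HA-tagged Ikaros fused to the ERt2 hormone-binding domain, followed by IRES-GFP. The Control line carries the empty vector, an MSCV vector that per the study's methods encodes ERt2 and IRES-GFP without Ikaros. Each of the 12 groups has 3 replicates, numbered 4, 5 and 6, which the labels place in batches 11, 12 and 13. All groups share the B3 line, and per the labels 4-hydroxytamoxifen (4-OHT) at 0.5 µM, the drug that releases the ERt2 fusion into the nucleus. The study's methods state that the 0 h cells received no drug and were collected separately. Each line is 1 transduced culture, so that the groups model 2 cultures and not 2 animals. Values are the deposited log2 accessibility, corrected for width and library size, and a difference of 1 is a 2-fold difference.

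Most active promoters of mammalian genes lie in stretches of DNA rich in CpG dinucleotides, where nucleosomes are displaced by the transcription machinery and by factors that bind there in every cell type. Enhancers, which lie in introns or between genes, are usually open only in the cell types that use them. Ikaros is a zinc finger factor needed for pre-B cell differentiation, and it is known to bind both regulatory elements of genes and the satellite repeats of pericentric heterochromatin. Reads from repeats can pile up where a reference genome holds fewer copies than the cell does, a known source of regions with very high signal.

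The members fall into a few repeats far above the rest, a large body of CpG-rich promoters, and a small number of sites away from promoters. The sequences below show one or more of each kind, read from the GRCm38.p6 reference, which has the coordinates of mm10, on the plus strand unless stated otherwise and with positions counted from 1. In the first pair the capitals mark bases that lie in a 36-base stretch found more than once in the reference, 36 bases being the length to which the authors trimmed their reads. The rank 1 member (chr14:19415712-19415856, bases of it outside the annotated exon of Gm21738) carries the letters of the mouse major satellite, and the Tmem267 intron member (chr13:119598587-119598680, rank 228) repeats a unit of 31 bases.
rank 1 member: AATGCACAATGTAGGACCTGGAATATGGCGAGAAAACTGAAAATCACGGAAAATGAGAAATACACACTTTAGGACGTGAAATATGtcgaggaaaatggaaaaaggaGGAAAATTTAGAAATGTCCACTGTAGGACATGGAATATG
Tmem267 intron member: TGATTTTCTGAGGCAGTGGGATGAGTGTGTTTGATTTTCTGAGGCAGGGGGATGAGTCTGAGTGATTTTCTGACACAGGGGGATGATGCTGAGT
In the next set the capitals mark matches to the motifs listed further on. They are the centres of the highest pair of members outside exons and promoters, in an intron of Aida (chr1:183299205-183299354) and near H2-Ea-ps (chr17:34347720-34347869), and of the higher of 2 members in an intron of Pax5 (chr4:44706080-44706229), which was chosen after its values were seen.
Aida intron member: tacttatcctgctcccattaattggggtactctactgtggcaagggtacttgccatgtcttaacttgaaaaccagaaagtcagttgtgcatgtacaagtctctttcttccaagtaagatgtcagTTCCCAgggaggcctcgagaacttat
H2-Ea-ps member: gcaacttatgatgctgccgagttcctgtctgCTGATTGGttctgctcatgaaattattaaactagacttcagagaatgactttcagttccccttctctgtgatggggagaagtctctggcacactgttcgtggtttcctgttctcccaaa
Pax5 intron member: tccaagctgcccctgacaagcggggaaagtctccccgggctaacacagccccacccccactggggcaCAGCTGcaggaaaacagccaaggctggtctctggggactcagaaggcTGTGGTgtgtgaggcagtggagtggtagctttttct
Bases of the member near Aurkb at rank 223 (chr11:69041786-69041898) show a tRNA gene, whose letters are in capitals, and was also chosen after its values were seen.
tRNA member: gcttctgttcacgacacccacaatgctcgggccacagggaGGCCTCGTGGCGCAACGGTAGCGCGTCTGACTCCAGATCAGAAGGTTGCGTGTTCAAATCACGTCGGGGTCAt
Last are the 150 bases before the start of Stk11 (chr10:80115645-80115794), of Gm26787, a noncoding RNA gene at the promoter of Stt3a (chr9:36767737-36767886), and of Hdgfl2 (chr17:56079481-56079630), from the promoter table of RefSeq, in which 453 of the 590 genes at member promoters were found by symbol. Capitals again mark motif matches, of which the first pair holds none.
Stk11 promoter: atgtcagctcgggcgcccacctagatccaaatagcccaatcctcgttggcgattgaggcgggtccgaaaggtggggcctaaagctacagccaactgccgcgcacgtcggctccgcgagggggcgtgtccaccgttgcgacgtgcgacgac
Gm26787 promoter: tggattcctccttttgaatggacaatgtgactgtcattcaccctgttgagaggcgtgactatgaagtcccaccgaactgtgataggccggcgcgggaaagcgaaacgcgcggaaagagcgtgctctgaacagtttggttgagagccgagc
Hdgfl2 promoter: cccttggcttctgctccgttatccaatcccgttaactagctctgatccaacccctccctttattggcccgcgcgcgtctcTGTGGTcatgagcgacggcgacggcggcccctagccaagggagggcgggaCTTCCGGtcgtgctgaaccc

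The mean levels of the members ran from 5.90 to 11.85, with a median of 6.08, against a median of 3.95 over all DHS. Only 9 members lay above 7 and only 5 above 9. From rank 5 to rank 6 the mean fell from 9.42 to 7.16, a step of 2.26, while around the cut there was no step at all. The last members inside were the Rpp38 promoter at 5.902, the promoter of Slc3a2 and Snhg1 at 5.901 and the Fbxo46 promoter at 5.901. Just outside were the promoter of Manf at 5.900 and a site near AC112949.1 at 5.900. These 5 DHS differed by far less than their SD between replicates, which was 0.173 to 0.344. Each DHS weighted by its width and unlogged mean, the members held 5.98% of the summed signal of the table, and the 495 members below rank 5 held 4.95%.

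**Figure D1:**
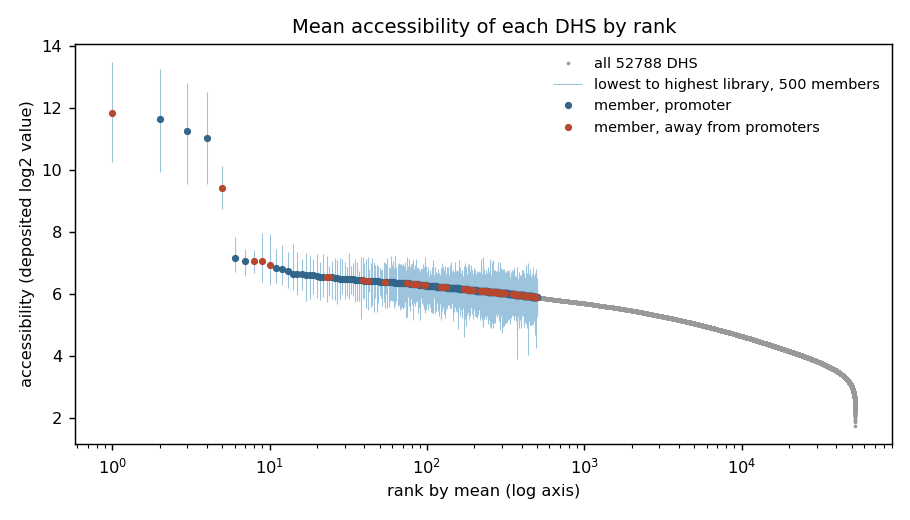
Mean accessibility (deposited log2 value, y axis) of each of the 52788 DHS against its rank (x axis, log scale). Blue and red points are members at and away from promoters, and vertical lines run from the lowest to the highest of the 36 libraries. The 4 highest members and the fifth stand apart, at 11.03 to 11.85 and 9.42, and the curve passes the cut at 5.90 without a step.

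The 4 highest members formed one block. They lay within 3389 bp (chr14:19415711-19419100) over and around the gene model Gm21738, with means of 11.85, 11.65, 11.25 and 11.03. The block was 83.6% soft-masked as repeat in the reference. Shifted against itself by 58, 233, 234 and 351 bases it matched at 53.5%, 51.7%, 51.2% and 60.5% of positions, against a median of 30.9% over all shifts, and repeat units of these lengths are known from the major satellite. It ended 604 bp from an assembly gap of 50000 unknown bases. With a BLAST search at 90% identity or more over 80% of the length or more, the highest 3 members had 328, 303 and 298 further copies in the reference, on chromosomes 2, 9 and 14 and on unplaced sequences, and the fourth had 5. The authors dropped partial chromosomes, and no DHS of the table lay on one.

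The repeat block also varied more between replicates than most members. In the rank 1 member the Control 24 h libraries were at 13.48, 12.39 and 11.53 and the Ikaros 24 h libraries at 10.93, 11.57 and 10.60. At 0 h the Control libraries were at 11.00, 12.49 and 13.17 and the Ikaros libraries at 12.17, 13.36 and 12.62. The groups overlapped at 24 h by the highest Ikaros and the lowest Control library, and widely at 0 h. At 12 h they did not overlap, with Control at 13.07, 12.99 and 11.73 and Ikaros at 11.56, 11.38 and 10.26. The SD between replicates was 0.742 for this member and 0.658 to 0.735 for the other 3, against a median of 0.248 over the members. The difference averaged over 2 to 24 h was -0.76 with an SE of 0.31 for the rank 1 member (limma, adjusted p = 0.065) and -0.39, -0.37 and -0.39 for the others (limma, adjusted p = 0.314, 0.337 and 0.252), none past the threshold of 0.05.

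The fifth member lay in an intron of Aida (chr1:183299020-183299539), the gene of a protein that binds axin, with a mean of 9.42. Its libraries ranged from 8.73 to 10.12. It was not a repeat of the same kind: 16.2% of it was soft-masked, 13.4% of its 36-base windows occurred more than once, and no further copy met the BLAST limits. The Ikaros 24 h libraries were at 9.0, 9.48 and 9.53 and the Control 24 h libraries at 9.28, 9.47 and 8.91, which overlapped. Averaged over 2 to 24 h the lines differed by 0.15 with an SE of 0.11 (limma, adjusted p = 0.342).

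Further down, repeats were few. A 36-base window found more than once was present in 68 members, or 13.6%, against 14.3% of all DHS, and such windows were at least 50% of all windows in 3 members, or 0.6%, against 0.504%. More than 50% of the sequence was soft-masked in 8 members, or 1.6%, against 5.46%. None of the members, nor any other DHS, shared a 36-base window with the mitochondrial genome. The 3 members with mostly repeated windows were the rank 1 member at 56.2%, the Tmem267 intron member at 64.4% and the single Y chromosome member (chrY:90732102-90732611, rank 259) at 52.1%. Besides the block, only the Tmem267 intron member with 28 copies, the Y member with 1 and the promoter of Zfp512 with 1 had further copies within the BLAST limits. The unit of 31 bases in the Tmem267 intron member, where it matched itself at 87.3% of positions, also gave the best match in an 81.2% soft-masked member of 1720 bp near Gm39469 (chr9:124256160-124257880, rank 260), at 79.0%.

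Members near assembly gaps lay in 3 places. Of the 10 members within 5000 bp of a gap of 1000 bases or more, 4 were the chromosome 14 block, 5 lay at Ppp2r3d near the end of chromosome 9 and 1 was the Tmem267 intron member. The 5 at Ppp2r3d, annotated as a regulatory subunit of protein phosphatase 2A, spanned chr9:124422737-124425732, 272 to 3130 bp from a gap, with means of 6.00 to 6.55.

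Promoters made up nearly all of the rest. Of the 500 members 443, or 88.6%, were near a transcription start site (TSS) of the annotation, at a distance of 1000 bp or less, against 25.9% of all DHS and 82.2% of the DHS at ranks 501 to 1000, and 385 contained one. A further 22 members, or 4.4%, lay in introns against 35.4%, 5 in exons, and 30, or 6.0%, between genes against 32.9%. CpG-rich members, with a GC content over 50% and an observed to expected CpG ratio over 0.6, numbered 395, or 79.0%, against 17.6% of all DHS and 60.4% of the other promoter DHS. At 30.4% of members, 2 or more genes started within 1000 bp, against 5.74% of all DHS and 21.8% of other promoter DHS. Protein-coding genes on both strands started at 80 members, or 18.1% of the member promoters, against 8.34% of the others. The composition of ranks 501 to 1000 was close to that of the members in these measures, with 78.2% CpG-rich. A level per base of width favours narrow sites, yet the members were wider than the table, with a median of 581.5 bp against 500 bp, and 15.6% of them were 200 bp or less against 46.1%.

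**Figure D2:**
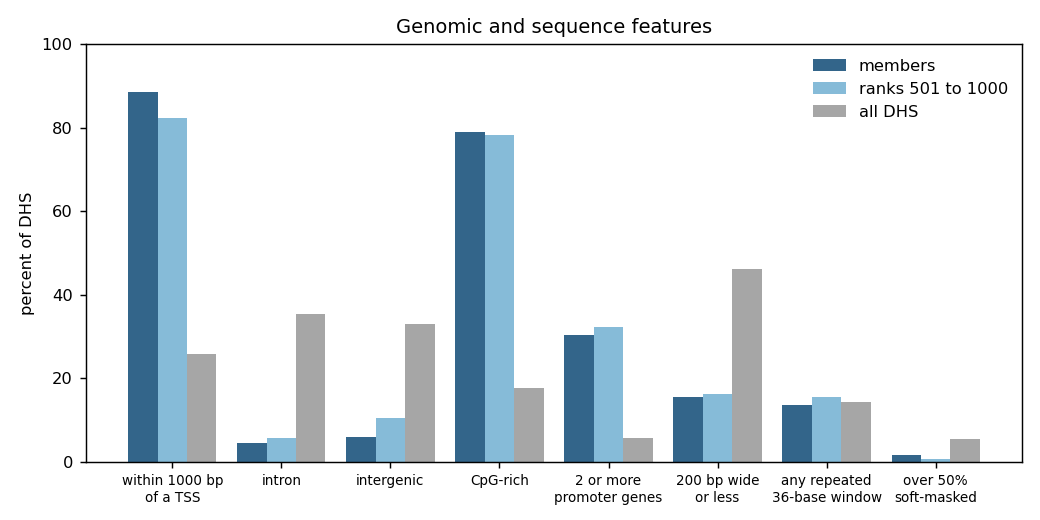
Percent of DHS (y axis) with each genomic or sequence feature for the 500 members, the 500 DHS at ranks 501 to 1000 and all 52788 DHS. Members and the next 500 look alike, with 88.6% and 82.2% near a TSS, and both differ from the table as a whole, at 25.9%, while the share with any repeated 36-base window is alike in all, at 13.6%, 15.6% and 14.3%.

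The highest promoters are given by name. After the repeats, the Stk11 promoter, of the kinase LKB1, stood highest with a mean of 7.16 and libraries from 6.72 to 7.84. The promoter of Stt3a, a catalytic subunit of the oligosaccharyltransferase that glycosylates proteins in the endoplasmic reticulum, followed at 7.08. Next were the shared promoter of Chtf18, of a clamp loader subunit of DNA replication, and Rpusd1 at 6.83, and those of the RNA-binding protein gene Khsrp at 6.82 and of Hdgfl2 at 6.74. The study titrated its DNase I on the open promoters of Ap2a1, Ikzf1 and Igll1. That of Ap2a1 ranked 56 with a mean of 6.39, and those of Ikzf1 and Igll1 were not members. The 443 promoters covered 590 of the 13627 genes with a promoter DHS, or 4.33%, which is the share to set beside each gene list. Only 17 member promoters, or 3.84%, had no protein-coding gene, against 15.5% of the other promoter DHS. The highest of these was 4932412D23Rik, a long noncoding RNA gene, at 6.57, followed by Mir22hg, the host gene of a microRNA, at 6.39.

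Among lists of genes, chaperones had the largest share with a member. Of the 21 chaperone genes with a promoter DHS 6 had one, or 28.6%, at 5 DHS, with the Hsph1 promoter at 6.26, Hspa8 at 6.14, Tcp1 with Mrpl18 at 6.11 and Dnajb11 with Tbccd1 at 6.09. Splicing and RNA-binding factors had members at 7 of 42 genes, or 16.7%, among them Sf1 at 6.49, Snrpa at 6.39, Hnrnpa1, at a promoter shared with Cbx5, at 6.34, and Hnrnpa3 at 6.24. Translation factors had 4 of 34, or 11.8%: Eif5a at 6.47, Eif4a1 at 6.23, Eef1g at 6.04 and Eif1 at 5.95. Histone genes had 4 of 45, or 8.89%, at 3 DHS of the histone gene cluster on chromosome 13, with means of 6.21, 6.16 and 6.03. Immediate early genes had 2 of 31, or 6.45%, Ier2 at 6.31 and Jund at 6.26. Ribosomal protein genes had 4 of 74, or 5.41%, close to the share of all genes. Rpl10, the only X chromosome member, at 6.18, Rps19 at 6.13 and Rpl27 at 5.98 were 3 of them. None of the 32 cell cycle genes and none of the 14 glycolytic enzyme genes with a promoter DHS had a member. These lists hold few genes, and no test was made on them.

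The B-lineage genes had members at 1 promoter and in the bodies of Pax5 and Ebf1. Of 43 such genes 33 had a promoter DHS and 1 a member there, or 3.03%, the promoter of Ebf1 at 5.99. As a check of the cell type, 2 of 9 T-cell genes, 1 of 6 myeloid genes, 1 of 5 erythroid genes and 0 of 8 genes of other tissues had a promoter DHS, and none of them a member. Away from promoters, 2 of 3 DHS in Pax5 and 2 of 12 in Ebf1 were members, where 27 of the 21744 DHS in introns and exons, or 0.124%, were. Pax5 and Ebf1 were picked because they hold members. Counts for the bodies of the other B-lineage genes are not given, so these shares do not describe the list. Pax5 encodes the factor that commits cells to the B lineage, and its intron members (chr4:44706069-44706239 and chr4:44705296-44705482) had means of 6.95 and 6.43. Ebf1 encodes an earlier B-cell factor, and its members (chr11:45008030-45008551 over an exon and chr11:44950315-44950831 in an intron) had means of 6.56 and 6.22.

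The 57 members away from promoters differed from the promoter members in build. Their median width was 197 bp against 590 bp, and 29 of the 57 were 200 bp or less. Only 12, or 21.1%, were CpG-rich, against 86.5% of the 443, though this was more than the 2.41% of other DHS away from promoters. High among the others were an intergenic site near H2-D1, a class I histocompatibility gene, at 6.56, the Sin3a intron, in the gene of a corepressor, at 6.45, and an intergenic site near Ptma at 6.39. Also among them were introns of Hdac7, Mef2c and Nfe2l2 at 6.32, 6.15 and 6.14, and 2 sites near Junb at 6.00 and 5.99. Near H2-Ea-ps, a class II histocompatibility pseudogene, a pair of members (chr17:34347493-34348095 and chr17:34349551-34349694) had means of 7.06 and 6.16. Some members were neighbours: 69 of them lay in 30 clusters with gaps of 5000 bp or less, the largest being the 5 at Ppp2r3d. Some clusters were 2 DHS at the same promoter, as at Lsm4 and Sap130. The share of other DHS in such clusters was not counted, so clustering is not shown to be particular to the members. Chromosome 11 held 64 members, or 12.8%, against 7.5% of all DHS, and chromosome X held 1, or 0.2%, against 2.15%. The narrowest high members, at 200 bp or less, were those of ranks 1 and 3 in the repeat block, the Pax5 intron, and the promoters of Hdgfl2 and D2hgdh at 6.74 and 6.60.

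A tRNA gene lay within 100 bp of 8 members, or 1.6%, against 152, or 0.288%, of all DHS. These genes are short, are read by RNA polymerase III, and occur in near-identical copies, so that short reads inside them can match several places. All 8 members held a 36-base window found elsewhere, and 6 lay away from promoters. The member shown above in capitals spans n-TWcca7, a tRNA gene for tryptophan (chr11:69041826-69041897), with 27.5% of its windows repeated and a mean of 6.10. The others were at genes for proline, arginine, glycine, valine, leucine and, with 2, lysine.

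The letters of promoter motifs were more frequent in the members than in all DHS. Matches were counted in the central 200 bp on both strands. The NFY spellings CCAATNAG and CCAATNGG, the CCAAT box, were in 119 members, or 23.8%, against 5.21% of all DHS and 10.8% of other promoter DHS. The NRF1 spelling GCGCNTGCG was in 104, or 20.8%, against 3.01% and 9.94%. The CRE letters TGACGTCA were in 30, or 6.0%, against 1.00% and 2.65%. The ETS letters CCGGAAG, in 14%, and the SP/KLF letters GGGGCGGGG, in 12.2%, were no more frequent than in other promoter DHS, at 14.4% and 13.7%. The palindrome TCTCGCGAG was in 0.8% against 0.258% of all DHS and 0.969% of other promoter DHS. Others matched fewer members than DHS as a whole: CTCF (AGGGGGCGC, AGGGGGCAC, AGATGGCGC, AGATGGCAC, AGGTGGCGC, AGGTGGCAC, AGAGGGCGC and AGAGGGCAC) in 3.8% against 13.8%, RUNX (TGTGGT) in 8.0% against 21.6%, the E-box CAGCTG in 8.2% against 14.9%, EBF1 (TCCCNNGGG) in 5.8% against 8.34%, AP-1 (TGANTCA) in 3.0% against 6.34%, PU.1 (GAGGAAGT) in 2.4% against 5.07% and YY1 (AAGATGGCG, which shares 8 letters with a CTCF spelling) in 0.6% against 0.803%. The Ikaros core TGGGAA was in 15% against 17.2%. Within the 57 members away from promoters RUNX matched 13, or 22.8%, and the Ikaros core 11, or 19.3%, beside the 25% and 17.8% of other DHS away from promoters. In other promoter DHS the shares were 8.07% for CTCF, 12.2% for RUNX, 11.8% for the E-box, 6.97% for EBF1, 4.0% for AP-1, 3.58% for PU.1, 2.02% for YY1 and 15.4% for the Ikaros core. A match of letters is not a bound site.

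The ranks of the members held better in some groups than in others. Between 221 and 418 members were among the 500 highest DHS of a given library, and 56 were in all 36. Of those 56, 48 lay at promoters, and all members of ranks 1 to 20 were included. A member was among the top 500 of 27 libraries at the median and of 9 at the least, the Hnrnpul1 promoter, while 1510 other DHS reached the top 500 of at least 1 library. Among group means, 201 members were in the top 500 of all 12 groups. The 0 h groups kept the fewest, 392 in Control and 336 in Ikaros, and the Ikaros 2 h group kept the most, 455. Control 0 h replicate 6 kept the fewest of all libraries, 221, and Ikaros 0 h replicate 4 the next fewest, 247. Counts that use them are given without each as well. Lists of 500 made from 1 replicate number alone shared 460 DHS between 4 and 5, 468 between 4 and 6 and 459 between 5 and 6, and 442 were in all 3 lists. The 500 highest of the Ikaros line alone held 445 of the members and those of the Control line 443.

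**Figure D3:**
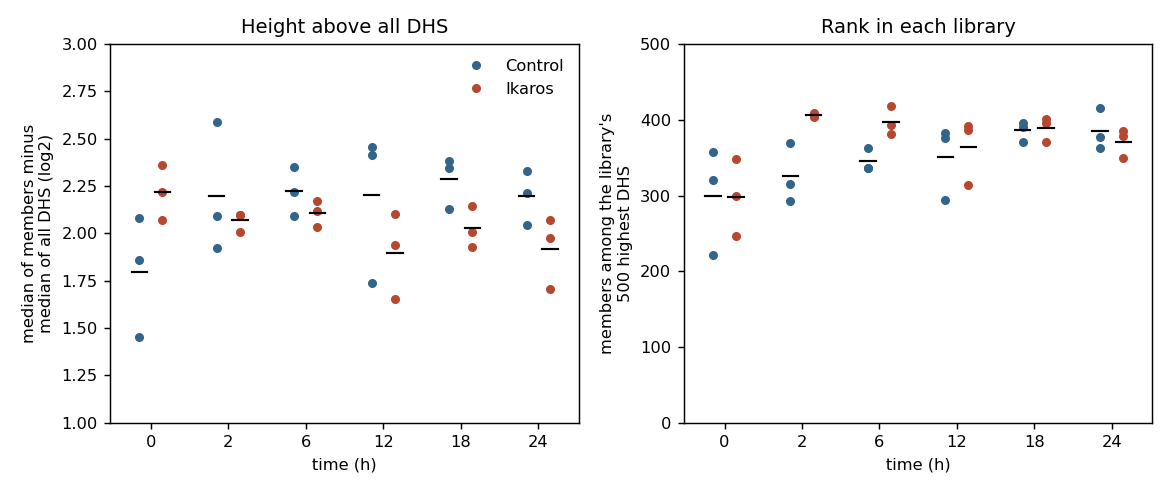
Left, the median of the members minus the median of all DHS in each library (log2, y axis, from 1 to 3), and right, the number of members among the 500 highest DHS of that library, by time (x axis, h) and line. Points are libraries and black bars are means of 3. Control at 0 h is lowest on the left, at a mean of 1.80, and both lines are low at 0 h on the right.

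Within groups the members varied less than most DHS. The SD between replicates had a median of 0.248, against 0.346 over all DHS, 0.261 over other promoter DHS and 0.231 over ranks 501 to 1000. The range of the 12 group means had a median of 0.56 in the members and 0.80 over all DHS. It was 0.67 in other promoter DHS and 0.54 in ranks 501 to 1000, so the narrow range was not particular to the members. The narrowest ranges were those of the promoters of Pdcd6, a calcium-binding protein gene, at 0.23, of Nol11, which acts in ribosome production, at 0.26, of Tent2 at 0.27 and Rpp38, an RNase P subunit gene, at 0.28, and of the Nfe2l2 intron at 0.27. The widest were those of the lower site near H2-Ea-ps at 1.96, of 3 members of the repeat block at 1.69, 1.41 and 1.40, and of a narrow second DHS at the 4932412D23Rik promoter (chr16:42875034-42875138) at 1.40. A test of any difference among the 12 groups (limma, adjusted p under 0.05) called 49 members, or 9.8%, against 11.1% of all DHS. Without Control 0 h replicate 6 it called 42 and without Ikaros 0 h replicate 4 it called 40. The order of members and all DHS depended on the setting. Quantile normalization gave 73 members, or 14.6%, against 9.04% of all DHS, and removed trends gave 71, or 14.2%, against 6.1%. With all of replicate 4 left out 105 members, or 21%, were called against 2.9%. Leaving out replicate 5 or 6 gave 4 and 2 members, beside 312 and 489 of all DHS.

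Change over time was called in few members. In the Ikaros line 6 members, or 1.2%, passed against 2.29% of all DHS. After quantile normalization the order turned, with 26 members, or 5.2%, against 2.43% of all DHS, and with trends removed 32 members, or 6.4%, passed against 0.949%. Without Control 0 h replicate 6 there were 6, and 2 without Ikaros 0 h replicate 4. Leaving out all of replicate 4, 5 or 6 gave 0 members each time, beside 0, 1 and 187 of all DHS. The 6 called with all libraries were the promoters of Agpat1, Ube4b, Polr2e, Lyl1 and the pair Ankra2 and Utp15, and the lower site near H2-Ea-ps. None of these kept its call when any of the replicates was left out. At that site the Ikaros 0 h libraries were at 5.07, 4.61 and 4.87, and those of 24 h at 6.61, 6.76 and 6.36. All 3 libraries at 0 h were below every later library of the line (limma, adjusted p = 0.0039). In Control the 0 h libraries of this site spread from 4.75 to 6.67. The Lyl1 promoter lost its call with the replicate block (limma, adjusted p = 0.0552). The change over time called 0 members in the Control line, where 0.148% of all DHS passed, although 104 members, or 20.8%, had an unadjusted p under 0.05 in limma, against 12.6% of all DHS. Once replicate 4 was left out 108 members, or 21.6%, passed against 1.23% of all DHS, and 0 passed without Control 0 h replicate 6.

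At 0 h, before any drug per the study's methods, most members were higher in the Ikaros line. The difference between the lines, Ikaros minus Control, had a median of 0.31 over the members and -0.06 over all DHS, and 432 of 500 were higher in Ikaros. It was of like size in ranks 501 to 1000, at 0.31, and in other promoter DHS, at 0.34, and lower in the members away from promoters, at 0.11. The test called 93 members, or 18.6%, against 12.9% of all DHS. Of these 91 were higher in Ikaros, or 18.2%, a direction in which 7.81% of all DHS, 25% of other promoter DHS and 22.8% of ranks 501 to 1000 were called, and 2 were lower, where 5.04% were. The replicates did not agree on it: the median difference was -0.08 in replicate 4, 0.28 in replicate 5 and 0.70 in replicate 6. Without Control 0 h replicate 6 the median was 0.15 and 17 members were called, or 3.4% against 4.39% of all DHS. Without all of replicate 6 the median was 0.10 with 6 called, beside 1520 of all DHS, again a lower share. Leaving out Ikaros 0 h replicate 4 gave 59 members, or 11.8% against 8.37%. Leaving out Ikaros 0 h replicate 5 or 6 gave 57 and 47, beside 5455 and 6150 of all DHS, a higher and a lower share. With all of replicate 4 left out, 145 members, or 29%, were called against 4.72%. With all of replicate 5 left out, 38 were called beside 4884 of all DHS, a lower share. With only the 0 h groups in the fit none was called.

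The largest differences at 0 h among called members whose groups did not overlap are given next. The narrow site at 4932412D23Rik was at 6.82, 7.05 and 6.72 in Ikaros and 5.81, 5.74 and 4.85 in Control, a difference of 1.40 with an SE of 0.30 (limma, adjusted p = 0.0034). The Agpat1 promoter (chr17:34605766-34605926), of an enzyme of phosphatidic acid synthesis, was at 6.95, 7.13 and 7.04 against 5.77, 6.05 and 5.72, a difference of 1.19 with an SE of 0.22 (limma, adjusted p = 0.0013). All Ikaros libraries of both lay above all Control libraries. The Ppp2r3d intron member (chr9:124425595-124425732) was higher by 0.97 with an SE of 0.20 (limma, adjusted p = 0.0024). The other way, the promoter of Lars, a leucyl-tRNA synthetase gene, was at 5.32, 5.17 and 5.77 in Ikaros and 6.47, 5.98 and 6.08 in Control, lower by 0.75 on the log2 scale with an SE of 0.21 (limma, adjusted p = 0.0173). This call was lost in 7 alternatives, among them those without Control 0 h replicate 4 and without Ikaros 0 h replicate 4 or 5, with adjusted p from limma of up to 0.162. The calls of 4932412D23Rik and Agpat1 were each lost in 3 alternatives and that of Ppp2r3d in 2, with adjusted p from limma of up to 0.15, 0.124 and 0.124. These calls were all lost without replicate 6 and with only the 0 h groups in the fit. Without Control 0 h replicate 6 the differences were 1.09 for 4932412D23Rik, 1.13 for Agpat1, 0.82 for Ppp2r3d and -0.80 for Lars, with adjusted p from limma of 0.0435, 0.0124, 0.0279 and 0.0467. The other member called lower was the site near H2-Ea-ps at rank 171, whose groups overlapped.

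At the later times, after 4-OHT, the median difference of the members had the opposite sign. In replicate 4 it did not turn, at -0.08 at 0 h and -0.14 over 2 to 24 h. Per the study's methods the 0 h cells were collected separately, so that drug and collection cannot be told apart. From 2 to 24 h the median difference of the members was -0.15, -0.16, -0.24, -0.25 and -0.22 at 2, 6, 12, 18 and 24 h, and in each of these 401 to 465 of the 500 were lower in Ikaros. Over all DHS the medians were between 0.00 and 0.06. Averaged over 2 to 24 h the members had a median of -0.20, against -0.14 in ranks 501 to 1000, -0.01 in other promoter DHS and 0.04 over all DHS. The test called 205 members, or 41.0%, against 29.5% of all DHS. It called 204 lower in Ikaros, where 12.4% of all DHS and 33.8% of ranks 501 to 1000 were called, and 1 higher, where 17.1% of all DHS were called. That one was the promoter of Zfp367 with Gm47513, at 0.23 with an SE of 0.09 (limma, adjusted p = 0.0489). The median was negative in every replicate, at -0.14, -0.18 and -0.28, but without replicate 6 the count fell to 66 and without replicate 5 to 72. Over all DHS the count fell from 15589 to 7958 and 8594. In both of these fits the share of members called, with both directions counted together, was below that of all DHS. The members called were 72 lower and 0 higher without replicate 5, and 65 lower and 1 higher without replicate 6. The share of all DHS called lower in these fits is not given, so the shares by direction cannot be compared. Leaving out replicate 4 gave 254 members, or 50.8%, against 21.7% of all DHS.

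The spread of the whole library moved with these differences. In the Control line from 2 to 24 h the SD of values over all DHS was 0.879 to 0.973 as a group mean, and in the Ikaros line 0.686 to 0.727, so that the top of the Control libraries lay further above their middle. At 0 h the Control line had the narrower spread, 0.763 against 0.957 in Ikaros. When all libraries were given the same distribution by quantile normalization, the median of the members was 0.00 at 0 h, -0.01 at 24 h and 0.04 averaged over 2 to 24 h. The called members then split into 32 higher and 34 lower at 0 h, into 3 higher and 9 lower at 24 h, and into 111 higher and 53 lower over 2 to 24 h. With trends of level, GC and width removed from each library they split into 9 higher and 35 lower at 0 h, 6 higher and 4 lower at 24 h, and into 86 higher and 71 lower over 2 to 24 h. Both settings draw the tops of the libraries together by construction, and the members are by rule the top, so a median near 0 follows from these settings and is no test of the direction. Of all DHS quantile normalization called 8.35% at 0 h, 1.55% at 24 h and 28.0% over 2 to 24 h, against 13.2%, 2.4% and 32.8% of the members, and the removal of trends called 2.86%, 0.659% and 23.6% against 8.8%, 2.0% and 31.4%. A fall in accessible DNA over all cells and a narrower spread of the libraries cannot be told apart here.

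**Figure D4:**
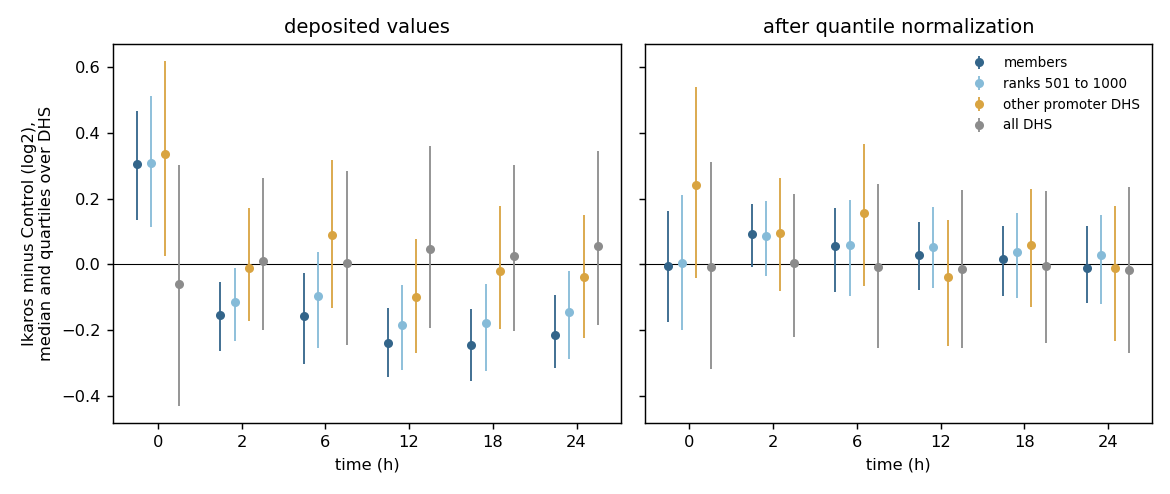
Ikaros minus Control (log2, y axis) at each time (x axis, h) as the median and quartiles over DHS, for the members, ranks 501 to 1000, other promoter DHS and all DHS, in the deposited values (left) and after quantile normalization (right). On the left the members go from a median of 0.31 at 0 h to -0.22 at 24 h, and on the right they lie between -0.01 and 0.09.

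At 24 h alone 9 members passed, or 1.8%, against 1.33% of all DHS. All 9 were lower in Ikaros, where 0.517% of all DHS were called, and none was higher, where 0.809% were. At an unadjusted p under 0.05 in limma 72 members, or 14.4%, were lower and 0 higher, and 14.7% of all DHS passed in either direction. The Gm16754 promoter (chr9:21225262-21225420), of an antisense RNA gene, was at 5.33, 5.57 and 5.39 in Ikaros and 6.75, 6.40 and 6.23 in Control, lower by 1.03 on the log2 scale with an SE of 0.19 (limma, adjusted p = 0.0054). The Impdh1 intron member (chr6:29214428-29214610), in the gene of an enzyme of guanine nucleotide synthesis, was at 5.68, 5.39 and 5.35 against 6.26, 6.41 and 6.70, lower by 0.98 with an SE of 0.24 (limma, adjusted p = 0.0353, and 0.0504 with the replicate block). In both, every Ikaros library lay below every Control library, which was a condition for naming them. The Impdh1 call was lost in 10 of 46 alternatives, with adjusted p from limma of up to 0.348. Among these was each fit that left out a library of the 24 h groups. The Gm16754 call was lost in 3 of 46, those without a whole replicate, with adjusted p from limma of up to 0.133.

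A member at the arginine tRNA gene n-TRcct2, near AC154766.4 (chr17:23548766-23548955), was at 5.27, 5.51 and 5.84 in Ikaros and 6.40, 6.27 and 6.74 in Control at 24 h. It was lower by 0.93 with an SE of 0.18 (limma, adjusted p = 0.01), and by 0.74 after quantile normalization, where it no longer passed (limma, adjusted p = 0.0541). This call was lost in 8 of 46 alternatives, that one among them, with adjusted p from limma of up to 0.182. The others called at 24 h were the promoters of Faap20, a Fanconi anaemia pathway gene, Zswim1, Zfp809, a zinc finger repressor of retroviral DNA, and Atp6v1g2 with Nfkbil1, an exon of Hnrnpl and a site near Junb, with differences from -0.83 to -0.66. In replicate 6 the median difference at 24 h was -0.54, against -0.06 and -0.01 in replicates 4 and 5, and no member was called without replicate 5 or without replicate 6, and 3 without replicate 4. Leaving out any one library of the 24 h groups except Control replicate 5 left 2 to 4 members.

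Averaged over 2 to 24 h, the members that differed most and did not overlap at 24 h were the Gm16754 promoter at -0.90 with an SE of 0.08, the Impdh1 intron at -0.85 with an SE of 0.11 and a narrow intergenic site beside the Stk11 promoter (chr10:80114673-80114759) at -0.83 with an SE of 0.10. These passed the test under every alternative, with adjusted p from limma of at most 0.0015. In quantile-normalized values they were -0.68, -0.62 and -0.59. Of the members away from promoters 38 of 57 were called lower in Ikaros, against 11.1% of other DHS away from promoters. Of those at promoters 166 of 443 were, against 15.3% of other promoter DHS. After quantile normalization the medians of these 57 stayed below 0 at each time from 2 to 24 h, at -0.05 to -0.12, and those of the promoter members lay between 0.00 and 0.10. At 0 h, before any drug per the study's methods, the median of the 57 was already lower, at -0.21. That of the promoter members was then 0.01. The higher Pax5 intron member was at 6.68, 6.43 and 6.30 in Ikaros at 24 h and 7.0, 7.07 and 7.36 in Control. The groups did not overlap, and averaged over 2 to 24 h it was lower by 0.48 with an SE of 0.10 (limma, adjusted p = 0.00055). The Ebf1 exon member was at 6.74, 6.43 and 6.50 against 6.34, 6.49 and 6.80, overlapped, and differed by -0.06 with an SE of 0.07 on average (limma, adjusted p = 0.515). Of the 8 members at tRNA genes 7 were called lower over 2 to 24 h, with differences of -0.78 to -0.16 over the 8, and the one that was not was at the Mynn promoter. Beside these, 40.8% of all members and 12.4% of all DHS were called lower.

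Of the 26 DHS of the gene lists 10, or 38.5%, were called lower over 2 to 24 h, close to the 40.8% of all members, against 12.4% of all DHS. Of the splicing factor members 3 of 7 were called lower, Hnrnpl at -0.39, Snrpa at -0.35 and Hnrnpa3 at -0.23. Of the translation factor members 2 of 4 were, Eif4a1 at -0.43 and Eif5a at -0.27. The histone DHS gave 2 of 3, at -0.57 for the promoter of Hist1h4a and Hist1h3a and -0.39 for that of Hist1h4b. Chaperones gave 1 of 5, immediate early genes 1 of 2, and ribosomal protein genes 1 of 4. Their medians, from -0.39 to -0.14, stood beside -0.20 for all members, and the Ebf1 promoter, the B-lineage member, was at -0.03 and not called.

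The time course of the difference between the lines was tested as an interaction of line and time. It called 9 members, or 1.8%, against 1.1% of all DHS, 2.06% of other promoter DHS and 2.6% of ranks 501 to 1000. The 9 were the promoters of Agpat1, Fxr2, Ube4b, Polr2e, Lyl1, Birc6, Ankra2 with Utp15 and Arhgap1 with Zfp408, and the site beside Stk11. With the replicate block 5 were called. Without Control 0 h replicate 6 the test called 1 member and without Ikaros 0 h replicate 4 it called 2. After quantile normalization it called 8 members, of which the Agpat1 promoter alone was among the 9, and the other 8 of the 9 had adjusted p from limma of 0.0543 to 0.814. In the deposited values all 9 were higher in Ikaros at 0 h, by 0.52 to 1.19, and lower in Ikaros at 24 h, by 0.10 to 0.84. Without Control 0 h replicate 6 only 1 was called and without Ikaros 0 h replicate 4 only 2, with 46 without Control 12 h replicate 4, and 0 without replicate 5, without replicate 6 or with a spread fitted per group.

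**Figure D5:**
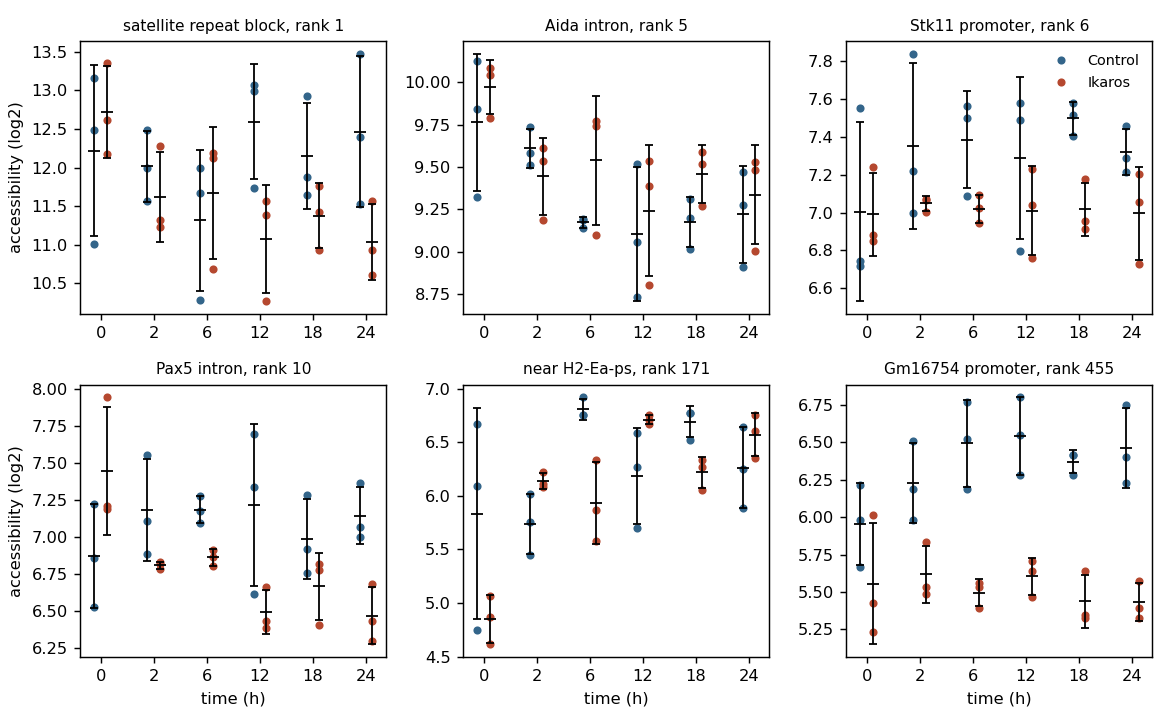
Accessibility (deposited log2 value, y axis, scaled to each panel) by time (x axis, h) of 6 members, with a point for each library and the mean and SD of 3 replicates in black. The lines overlap in the rank 1 member of the repeat block except at 12 h, and in the Aida intron at every time. The site near H2-Ea-ps is at 4.61 to 5.07 in Ikaros at 0 h, and at the Gm16754 promoter the Ikaros libraries lie below the Control libraries at 24 h.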

How the data were processed

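DNase-seq libraries of the Ikaros and Control lines were compared. The authors cut reads to 36 bases, aligned the pairs to mm10 with Bowtie2 and kept unique alignments. HOMER peaks of a narrow and a wider kind from every replicate were merged by them into 1 list. They removed mitochondrial, partial-chromosome and blacklisted regions and counted reads with bedtools. The deposited values are log2 accessibility after RPKM and TMM scaling by the authors and removal of unwanted variation with ARSyN. ARSyN models the groups, so that the groups of the table are not fully independent and p-values can be too small. Counts are not used here, so the depth of each library, and what it limits, is unknown. All 36 value columns matched a sample, with 0 left over, and coordinates are given as in the table.

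DHS were ranked by their mean. Genes came from GENCODE M21 (promoter: within 1000 bp of a TSS), tRNA genes from RefSeq. Every 36-base window was counted on both strands of the GRCm38.p6 reference. BLAST 2.17.0 searched for copies. Tests used limma 3.58.1 (moderated F or contrast tests on all 52788 DHS, intensity trend, 12 group means, two-sided, Benjamini-Hochberg adjustment, threshold 0.05), tested on simulated data. The labels say that replicate numbers mark a batch, which pairs the samples. The mean correlation of residuals between same-numbered samples was -0.013, and it was over 0.1 in 24 of 198 pairs over all DHS and in 71 over the members alone, so a replicate block was an alternative. Per the study's methods the replicates are biological, from repeats of the time course in batches, and the 0 h cells came from batches of their own. The other alternatives were no intensity trend, a spread per group, quantile normalization, removed trends, DHS above the median, the compared groups only, and leaving out libraries or replicates.

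The members, gene lists and motifs were chosen with earlier results of these data known. Named DHS, apart from a few items not reported here, were the 10 highest, 3 on each side of the cut, the 10 highest away from promoters, up to 3 per direction in each line contrast with groups that do not overlap, the 5 widest and 5 narrowest ranges of group means, members of the gene lists, the most repeated and the highest narrow members. Sites named in other places were chosen after their values were seen. Versions of the authors' tools are not given in the sources used here.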

Additional observations from a re-analysis of the deposited data

Results flagged for a closer look

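For 9 members the difference between the lines changed over time by the test of the interaction itself (limma, adjusted p under 0.05). The adjusted p was 0.013 for the Agpat1 promoter and 0.013 for the promoter of Fxr2, 0.0236 for that of Ube4b, 0.0262 for that of Ankra2 with Utp15, 0.0264 for that of Polr2e, 0.0365 for that of Lyl1 and 0.0365 for the site beside Stk11, 0.0406 for the promoter of Arhgap1 with Zfp408 and 0.0491 for that of Birc6. With the replicate block those of Birc6, the site beside Stk11, Lyl1 and Arhgap1 were no longer called, at adjusted p of 0.0715, 0.0555, 0.0593 and 0.0662. After quantile normalization the Agpat1 promoter alone of these 9 was still called, and the other 8 had adjusted p from limma of 0.0543 to 0.814. The Agpat1 promoter was called in 41 of its 45 alternatives, with adjusted p from 0.000636 to 0.382, and the Birc6 promoter in 10 of 45. The Agpat1 difference was 1.19 at 0 h, 0.33 at 2 h and -0.59 at 24 h, and the cause was not tested.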

How the results depend on the processing

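A replicate block gave 39 members called for any difference among groups, 5 over time in Ikaros, 0 over time in Control, 5 for the interaction, 78 at 0 h, 6 at 24 h and 192 over 2 to 24 h. Of the tests of single DHS checked in this way, the block ended the calls of Impdh1 at 24 h, of Lyl1 over time in Ikaros and of the 4 members given above for the interaction, and no other. Over time in Ikaros, quantile normalization called 26, removed trends 32 and DHS above the median 10. The interaction called 3 without the intensity trend, 0 with a spread per group, 1 with trends removed and 19 in DHS above the median. At 0 h a spread per group called 17, removed trends 44 and the 2 groups alone 0. At 24 h a spread per group called 34. Leaving out a replicate or library gave 2 to 105 called members for any difference, 0 to 13 over time in Ikaros, 0 to 108 over time in Control, 0 to 46 for the interaction, 6 to 145 at 0 h, 0 to 13 at 24 h and 66 to 292 over 2 to 24 h. Lone libraries moved some counts over 1.5 times. Without Control 12 h replicate 4 the counts were 93 for any difference, 13 over time in Ikaros, 1 over time in Control and 46 for the interaction. Over time in Ikaros it was 11 without Control 2 h replicate 4 and 2 without Ikaros 0 h replicate 4. Over time in Control it was 9 without 0 h replicate 4, 2 without 2 h replicate 4 or 5, and 1 without 6 h or 18 h replicate 4 or 24 h replicate 6. For the interaction it was 22 and 1 without Control 0 h replicate 5 or 6, 27, 21 and 14 without Control 2 h replicate 4, 5 or 6, 5 without Control 12 h replicate 5, 2 and 4 without Ikaros 0 h replicate 4 or 6, and 5 without Ikaros 2 h replicate 6 or Ikaros 24 h replicate 5 or 6. At 24 h it was 4 and 2 without Control replicate 4 or 6, and 4, 2 and 4 without Ikaros replicate 4, 5 or 6. The median difference was -0.0041 after quantile normalization and -0.086 with trends removed at 0 h, 0.032 with trends removed at 24 h, and 0.038 after quantile normalization and -0.00352 with trends removed over 2 to 24 h. Leaving out gave medians of 0.10 to 0.51, -0.29 to -0.035 and -0.24 to -0.17.

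Ranked by total signal, 297 members remained, with 93.0% of that list at promoters, and the top 250 kept 250. The promoter share was 83.4% by the Control libraries and 85.4% in the top 1000. With at least 50% of the windows repeated in place of any, 0.6% were repeats. The cause was not tested. Other alternatives moved no count of called members by over 1.5 times.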
